A study of Mus musculus with 2 samples.

Results

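The 33 genes described here are the antioxidant and xenobiotic metabolism genes of mouse intestine, a group defined by function. Each was found by its symbol, and all 33 were among the 17219 genes of the authors' deposited table. The series concerned FABP4, which binds fatty acids, and its removal from intestinal epithelium. Mouse intestinal crypts were cultured in Matrigel until day 6 as organoids, and 1.5 µg of total RNA went into each sequencing library. The mice called F4KO carried floxed Fabp4 alleles and a villin-Cre transgene, which is driven by a promoter active in intestinal epithelium. Those called WT carried the floxed alleles without the transgene, so both groups shared the modified Fabp4 locus. The title and the design call the first genotype a knockout and its genotype label calls it a knockdown.

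Each genotype had 1 organoid library. The deposited tables hold a second comparison, of an F4KO and a WT library named Epi in the headers, which no label used here describes, so it is given under that name with nothing assumed of its source. Neither comparison had a replicate, and the deposited false discovery rate (FDR) compares 2 libraries, not genotypes. Fold changes are F4KO over WT, a direction read from the headers, where WT is named before F4KO. Where read numbers are given, they were recovered from the deposited p-values, and each ratio of reads, scaled by the library totals, has an exact Clopper-Pearson interval at 95%, which covers counting error only.

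Cells meet reactive oxygen and foreign chemicals with overlapping sets of enzymes. The transcription factor NRF2, encoded by Nfe2l2, is held back by its sensor KEAP1 and, when released, binds antioxidant response elements of genes for glutathione synthesis, quinone reduction and thiol repair. Foreign compounds are oxidised by cytochromes P450, hydrolysed by carboxylesterases, joined to glutathione or glucuronic acid by transferases and pumped out by transporters of the ABC family, and in the gut these genes are active largely in the absorptive enterocytes, under the nuclear receptors PXR and CAR and the aryl hydrocarbon receptor.

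The promoters of 5 of the genes are shown because these genes were among those that differed in the Epi comparison, and the sequences let their start sites be compared. Each runs 5′ to 3′ on its gene's strand from 250 bases before to 50 bases after the start of 1 annotated transcript, in RefSeq's table for GRCm38.p6. Capitals mark the core of an antioxidant response element (TGACNNNGC, either strand) in Gclm and Abcc2. In Cyp1a1 they mark the core of a xenobiotic response element (GCGTG). In Cyp3a11 and Cyp2c65 they mark a site for the enterocyte factor HNF4 (CAAAGTCCA). Only 1 chosen motif is marked per promoter. Other matches stay in lower case, such as an antioxidant core in Cyp2c65 and a xenobiotic core in Gclm.
Gclm (chr3:122245307-122245606, plus strand): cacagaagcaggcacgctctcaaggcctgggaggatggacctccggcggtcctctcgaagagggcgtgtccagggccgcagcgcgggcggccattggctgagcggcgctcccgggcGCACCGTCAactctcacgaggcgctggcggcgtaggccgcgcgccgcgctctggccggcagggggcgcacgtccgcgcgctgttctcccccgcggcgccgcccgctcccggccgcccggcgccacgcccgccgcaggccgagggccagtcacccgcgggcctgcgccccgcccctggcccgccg
Abcc2 (chr19:43782058-43782357, plus strand): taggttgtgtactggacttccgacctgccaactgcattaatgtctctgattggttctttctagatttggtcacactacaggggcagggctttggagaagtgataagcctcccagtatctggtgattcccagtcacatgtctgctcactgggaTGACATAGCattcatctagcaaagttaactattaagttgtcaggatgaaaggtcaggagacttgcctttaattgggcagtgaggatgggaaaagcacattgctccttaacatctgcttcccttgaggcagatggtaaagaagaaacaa
Cyp1a1 (chr9:57697363-57697662, plus strand): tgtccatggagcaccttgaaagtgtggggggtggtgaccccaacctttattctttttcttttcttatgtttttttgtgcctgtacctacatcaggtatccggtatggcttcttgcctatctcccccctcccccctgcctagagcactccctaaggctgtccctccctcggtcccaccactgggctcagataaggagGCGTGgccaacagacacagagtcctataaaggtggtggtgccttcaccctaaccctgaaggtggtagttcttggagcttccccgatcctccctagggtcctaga
Cyp3a11 (chr5:145879805-145880104, minus strand): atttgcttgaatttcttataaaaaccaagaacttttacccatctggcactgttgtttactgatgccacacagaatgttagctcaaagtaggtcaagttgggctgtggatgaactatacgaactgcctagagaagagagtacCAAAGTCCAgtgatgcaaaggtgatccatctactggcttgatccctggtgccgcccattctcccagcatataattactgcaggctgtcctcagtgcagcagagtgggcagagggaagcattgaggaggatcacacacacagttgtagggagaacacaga
Cyp2c65 (chr19:39060756-39061055, plus strand): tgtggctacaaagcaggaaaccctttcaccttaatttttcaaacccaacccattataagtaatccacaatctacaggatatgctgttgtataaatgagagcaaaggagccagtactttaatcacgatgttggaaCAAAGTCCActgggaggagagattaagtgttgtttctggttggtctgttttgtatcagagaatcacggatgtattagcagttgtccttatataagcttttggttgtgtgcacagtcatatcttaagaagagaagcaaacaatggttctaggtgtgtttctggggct
The antioxidant core lies at -134 to -126 in Gclm, on the minus strand, and at -98 to -90 in Abcc2, the xenobiotic core at -54 to -50 in Cyp1a1, and the HNF4 site at -109 to -101 in Cyp3a11 and -116 to -108 in Cyp2c65. All were counted from the start of transcription and searched on both strands. The HNF4 motif was picked after the fold changes had been seen. Among the 29 genes of the group with a promoter in the table, the antioxidant core occurred in 9, namely Nfe2l2, Txnrd1, Srxn1, Gclm, Sod1, Prdx1, Cyp2c65, Abcb1a and Abcc2, against 13.99% of all 27025 genes with promoters of the same length. The xenobiotic core occurred in 14 of the 29 and 35.2% of all genes, and the HNF4 site in 2 of the 29 and 0.555% of all genes. A gene was counted once, where any of its promoters in the table held the motif. These are matches of letters, and no binding was measured.

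The recovered totals of the 2 libraries were close in the organoid comparison, where F4KO had 0.992 times the reads of WT, and further apart in the Epi comparison, at 0.813 times. The epithelial marker Epcam was high in all libraries, with recovered levels of at least 388 and 401 in the WT and F4KO organoids and at least 299 and 259 in the WT and F4KO Epi libraries. Fabp4 could not check the genotypes, since it passed in neither comparison of the authors' deposited table. Its log2 fold change there was -3.58 in the organoids (FDR 0.719) and 1.93 in Epi (FDR 0.213). In Epi its value was thus higher in F4KO, without passing. The Y-linked gene Eif2s3y had a log2 fold change of 9.53 in the organoid comparison and -0.02 in the Epi comparison in the authors' deposited table. The labels do not give the sex of the mice, so sex and genotype cannot be told apart in the organoids.

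In the organoids, none of the 33 genes differed by 1.5-fold or more. By the rule used for calls, at least 1.5-fold with a deposited FDR of 0.001 or less, 0 were higher and 0 lower, where 0.271% of all genes were called higher and 0.94% lower. Small differences passed the FDR alone in 9 genes of the authors' deposited table, 8 of them higher in F4KO, where 3.09% of all genes were higher and 4.7% lower by that rule. The higher genes were Gsta1, Gstm1, Gstm3, Gpx2, Cyp2c65, Ugt1a1, Ces2e and Abcc2, and the lower one was Gpx4. With many reads a small difference passes this FDR, and every gene with exactly recovered reads in the organoids had 312 or more in WT. Over all 33 genes the median deposited log2 fold change was 0.06, from -0.20 for Cyp3a11 to 0.33 for Cyp1a1, beside 0.00 for all 15845 genes with a fold change.

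In the Epi libraries the same genes differed widely and in both directions. Called higher in F4KO were 4 genes, Gsr, Gpx1, Gpx2 and Cyp1a1, or 12.1% of the group where 20.0% of all genes were higher. Called lower were 10 genes, Gclm, Gstm1, Gstm3, Cat, Cyp3a11, Cyp3a25, Cyp2c65, Cyp2b10, Abcb1a and Abcc2, or 30.3% of the group where 2.51% of all genes were lower. By the FDR alone 9 were higher and 19 lower, beside 30.6% and 7.92% of all genes. The median deposited log2 fold change of all 16336 genes was itself 0.38, and 26 of the 33 genes lay below it. With that median subtracted, 2 genes were called higher and 16 lower. The added lower ones were Srxn1, Gsta1, Gpx4, Cyp3a13, Ugt1a1 and Abcg2, while Gpx1 and Cyp1a1 were no longer called higher. The group's own median was -0.29 in the authors' deposited table, but 0.14 for the 22 genes outside a list of 11 known to have close copies, so its sign rests on genes of families such as Gstm, Cyp3a and Cyp2c. Both medians lay below the 0.38 of all genes. The 11 were Gsta1, Gstm1, Gstm3, Gstp1, Cyp3a11, Cyp3a25, Cyp2c65, Cyp2b10, Ugt1a1, Abcb1a and Ces2e. How reads were placed among their copies is uncertain.

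Cell type markers also differed between the Epi libraries. Of 14 enterocyte markers 7 were called lower and 0 higher, with log2 fold changes from -1.30 to 0.27 and a median of -0.56 in the authors' deposited table. All 10 cell cycle genes were called higher, from 0.60 to 2.10, with a median of 1.74. So were 6 of 10 intestinal stem cell markers, with a median of 1.44. Of 9 Paneth markers 7 were called higher and 1 lower, with a median of 0.94. The lower one was Pnliprp2, at -1.43 in the authors' deposited table. Of all genes 20.0% were called higher and 2.51% lower in Epi. Of 9 fibroblast and smooth muscle markers 6 were called higher, with a median of 3.10, and of 5 erythroid markers 3 were lower, with a median of -2.78. The part of these markers in the results that follow was not tested. In bulk RNA, fewer cells of a type and less RNA per cell cannot be told apart. In the organoids the median of the enterocyte markers was 0.14 and that of the cell cycle genes -0.28, with 0 and 1 gene called.

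**Figure D1:**
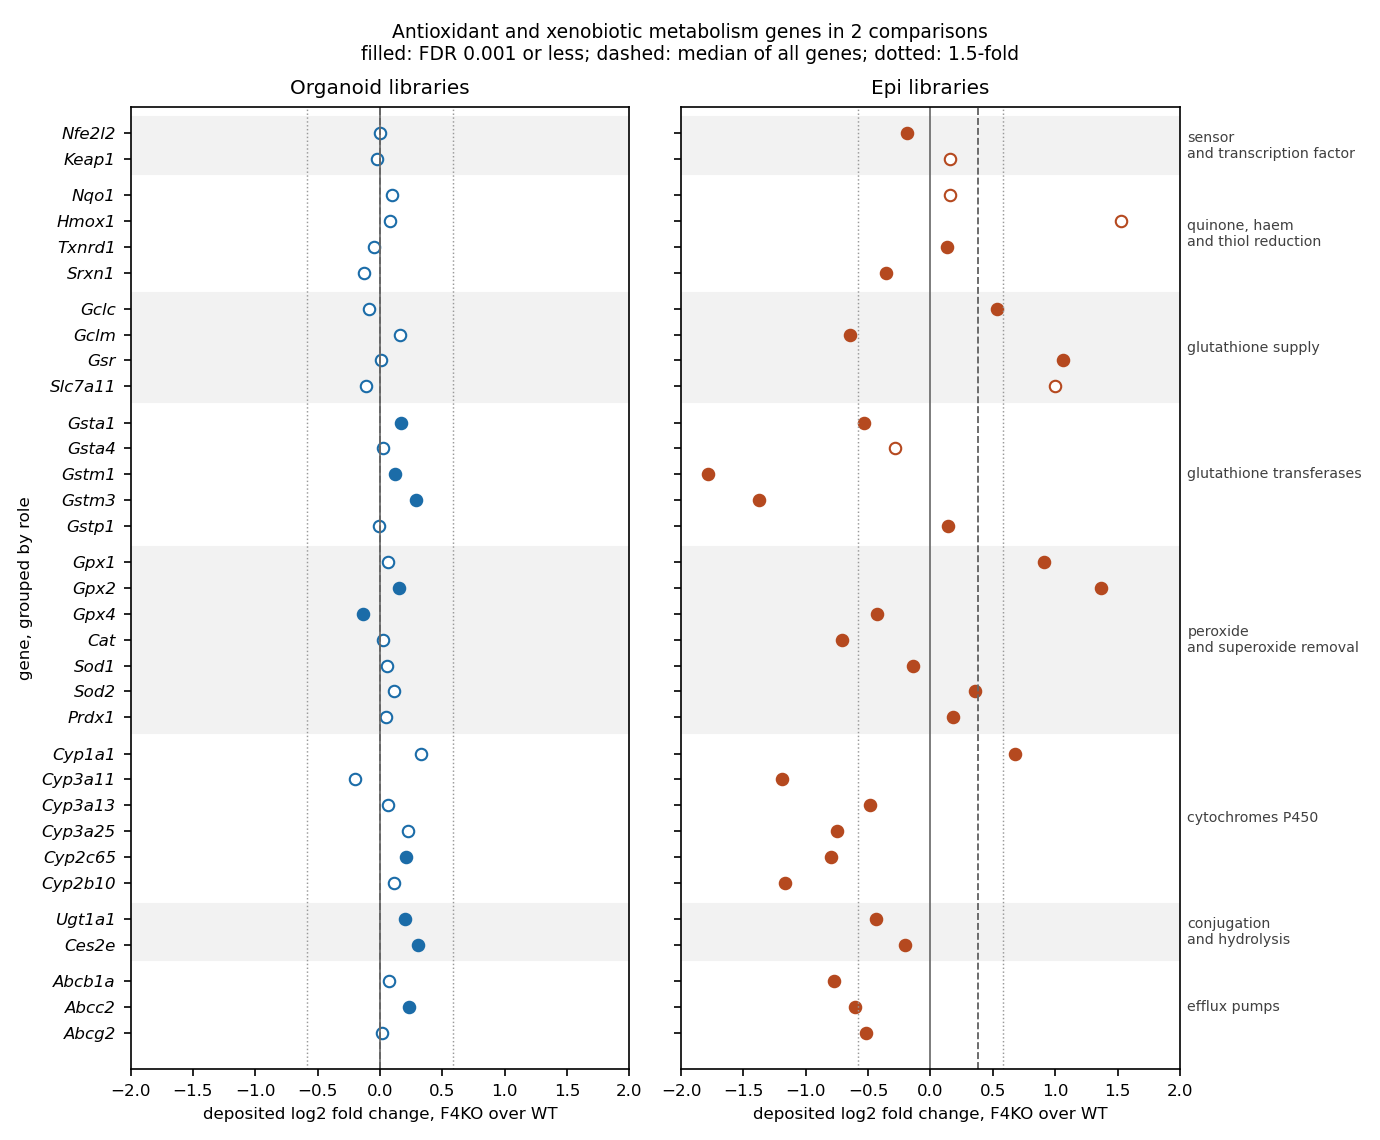
Deposited log2 fold change (x axis, F4KO over WT) of the 33 genes (y axis, grouped by role) in the organoid comparison (left, blue) and the Epi comparison (right, red). Filled points have a deposited FDR of 0.001 or less, dashed lines mark the median of all genes and dotted lines a 1.5-fold difference. All organoid points lie between -0.20 and 0.33, whereas Epi points run from -1.78 for Gstm1 to 1.52 for Hmox1.

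Neither the transcription factor NRF2 nor its sensor differed by 1.5-fold in either comparison. Nfe2l2 (chromosome 2, 75675513 to 75704663, GRCm38.p6, as for all positions here) had 2852 reads in the WT and 2822 in the F4KO organoids. A gene with an equal share of both totals would have 0.992 F4KO reads per WT read in the organoids and 0.813 in Epi. In the Epi libraries it had 4331 in WT and 3085 in F4KO, a scaled ratio of 0.876 with an interval from 0.837 to 0.918, so the F4KO library was slightly lower (FDR 8.29e-08 in the authors' deposited table). Keap1, whose protein marks NRF2 for degradation, had log2 fold changes of -0.02 in the organoid and 0.15 in the Epi comparison of the authors' deposited table, and passed the FDR in neither. Keap1 had 4 transcripts, and the one with the smallest p-value was picked in each comparison separately. The one picked in the organoids stood at -7.42 (FDR 3.77e-27 in the authors' deposited table). The one picked in Epi stood at 5.64 (FDR 1.57e-08 in the authors' deposited table). Whether these were the same transcript was not checked. The 4 transcripts ranged from -7.42 to 0.16 in the organoids and from 0.08 to 5.64 in Epi. The sign of the Keap1 value in Epi turned negative when the median of all genes was subtracted.

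Enzymes that reduce quinones, haem products and thiols, which are standard targets of NRF2, showed no call in either comparison. Nqo1, the quinone reductase often used to read NRF2 activity, had log2 fold changes of 0.09 and 0.15 in the organoid and Epi comparisons of the authors' deposited table, with FDRs of 0.285 and 0.202. Hmox1, which breaks down haem, had the highest Epi fold change of the group, 1.52 (FDR 0.0352 in the authors' deposited table), yet it rested on 7 reads in WT and 16 in F4KO. The interval of that ratio ran from 1.09 to 8.08. Haem oxygenase was thus close to undetected in both Epi libraries. Srxn1, the sulfiredoxin that repairs overoxidised peroxiredoxins, had 1346 and 1219 reads in the WT and F4KO organoids and 10237 and 6502 in the WT and F4KO Epi libraries. Its Epi ratio of 0.781 (0.757 to 0.806) passed the FDR, at 5.48e-54 in the authors' deposited table. Txnrd1, the cytosolic thioredoxin reductase, was higher in F4KO Epi by a small margin, with 4018 reads in WT and 3588 in F4KO and a ratio of 1.10 (1.05 to 1.15). Txnrd1 and Nqo1 turned negative in Epi when the median of all genes was subtracted, and Srxn1, at -0.73, then met the rule for calls.

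Other NRF2 targets were called on both sides in Epi. Of 27 further target genes with a fold change there, 1 was called higher and 2 lower, where 20.0% of all genes were higher and 2.51% lower, and of 28 in the organoids none was called. The multidrug resistance protein gene Abcc1 was higher, at 1.74 in the authors' deposited table. Me1, the cytosolic malic enzyme that makes NADPH, was lower at -1.39, and Cbr1, a carbonyl reductase, at -0.63 in the authors' deposited table. The median of these targets in Epi was 0.17, below the 0.38 of all genes.

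The glutathione supply genes split between Epi libraries. Gclm (chromosome 3, 122245487 to 122267215) encodes the modifier subunit of glutamate-cysteine ligase, the enzyme that limits glutathione synthesis, and was lower in F4KO. It had 2378 reads in WT against 1239 in F4KO Epi, a ratio of 0.641 (0.598 to 0.687), and its FDR in the authors' deposited table was 4.83e-37. Its catalytic partner Gclc was on the other side, with about 590 reads in WT and 690 in F4KO and a log2 fold change of 0.53 in the authors' deposited table, past the FDR and short of 1.5-fold. Gsr (chromosome 8, 33653238 to 33698162), the reductase that returns oxidised glutathione to its reduced form, had 2083 reads in WT and 3537 in F4KO Epi. That is a ratio of 2.09 (1.98 to 2.21), and its FDR in the authors' deposited table was 1.62e-161. The 2 subunits of the ligase therefore had opposite signs in Epi. With the median of all genes subtracted, Gclm stood at -1.02 and Gclc at only 0.16. The Epi value of Gclc was above that of 58.2% of all genes, so it lay near the middle.

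In the organoids the same enzymes were nearly level. Gsr had 3779 reads in WT against 3772 in F4KO, a ratio of 1.01 (0.962 to 1.05). Gclm had 1081 and 1198 reads, a ratio of 1.12 (1.03 to 1.21), which missed the FDR limit (0.0472 in the authors' deposited table). The cystine importer Slc7a11 had 2 reads in WT Epi and 3 in F4KO Epi, too few to compare, and an organoid log2 fold change of -0.11 (FDR 0.471 in the authors' deposited table). Of 18 other genes of glutathione metabolism 2 were called higher in Epi and 0 lower, where 20.0% and 2.51% of all genes were. They were Chac1, which degrades glutathione, at 1.96, and Slc1a1, a glutamate and cysteine transporter, at 1.51 in the authors' deposited table. None was called in the organoids.

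Glutathione transferases, which attach glutathione to reactive compounds, held the lowest values of the group in Epi and, in 4 of 5 cases, small positive ones in the organoids. Gstm1 (chromosome 3, 108012250 to 108017973) had a log2 fold change of -1.78 in Epi in the authors' deposited table, with the FDR listed as 0, which needs at least 4090 reads in WT and 967 in F4KO. Gstm3 (chromosome 3, 107963696 to 107969174) stood at -1.37 in the same comparison of the authors' deposited table, with an FDR of 0 and at least 5965 and 1871 reads. Both lie in the cluster of mu-class genes, whose sequences are alike, so their shares of the reads are uncertain. In the organoids Gstm1 had about 13000 reads in WT and 14000 in F4KO and Gstm3 about 10000 and 12000. Their organoid log2 fold changes of 0.12 and 0.28 passed the FDR, at 1.72e-10 and 3.22e-46 in the authors' deposited table.

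Gsta1 (chromosome 9, 78230669 to 78242683), of the alpha class that is abundant in small intestine, followed the same pattern with read numbers recovered in every library. Like the mu-class genes it has close copies, so the placement of its reads is uncertain. It had 10444 reads in WT and 11644 in F4KO organoids, a ratio of 1.12 (1.09 to 1.15), and 2482 and 1395 in the Epi libraries, a ratio of 0.691 (0.647 to 0.739). Both passed the FDR in the authors' deposited table, at 3.24e-16 and 6.89e-28, and neither reached 1.5-fold. Gsta4, which handles lipid aldehydes, had 483 reads in WT against 322 in F4KO Epi, a ratio of 0.820 that missed the FDR limit (0.0121 in the authors' deposited table). Gstp1, the pi-class enzyme, was almost level throughout, with 19934 and 19646 reads in the organoids. Its Epi reads of 10318 and 9241 gave a ratio of 1.10 (1.07 to 1.13), higher in F4KO past the FDR, which turned negative when the median of all genes was subtracted. Of 21 other transferases with a fold change in Epi 5 were called lower and 0 higher, among them Gstm4 at -1.45, Gstm6 at -0.94 and Gstm7 at -0.90 in the authors' deposited table. Of all genes 2.51% were called lower in Epi and 20.0% higher. None of the other transferases was called in the organoids, where 0.271% of all genes were higher and 0.94% lower.

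Enzymes that remove peroxide and superoxide moved both ways in Epi, beside the median of 1.74 for cell cycle genes. Gpx2 (chromosome 12, 76792335 to 76795554), the gastrointestinal glutathione peroxidase, which is known for its place in crypts, was higher at 1.37 in the authors' deposited table, with an FDR of 0 and at least 2261 reads in WT and 4734 in F4KO. Gpx1 (chromosome 9, 108339080 to 108340342), the widespread cytosolic peroxidase, had 2190 reads in WT against 3335 in F4KO, a ratio of 1.87 (1.77 to 1.98). Its FDR in the authors' deposited table was 9.61e-117, and with the median of all genes subtracted it was below 1.5-fold. Catalase, encoded by Cat (chromosome 2, 103453904 to 103485153) in peroxisomes, was lower, with about 8200 reads in WT and 4100 in F4KO and a ratio of 0.611 (0.588 to 0.634). Gpx4, which guards membranes against lipid peroxidation, was lower in both comparisons and the only gene of the group to be lower past the FDR in the organoids. It had about 9500 and 8500 reads in the organoids and 7800 and 4800 in Epi, with log2 fold changes of -0.14 and -0.43 in the authors' deposited table. Of its 3 transcripts in Epi, 1 was higher and 1 lower past the FDR.

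Both dismutases and peroxiredoxin 1 differed by less. Sod1, the cytosolic superoxide dismutase, had 9248 and 9533 reads in the WT and F4KO organoids and 5894 and 4338 in the Epi libraries, where its ratio was 0.905 (0.870 to 0.942). Sod2, the mitochondrial one, had 2287 and 2458 reads in the organoids and 1364 and 1419 in Epi, where its ratio was 1.28 (1.19 to 1.38). The thiol peroxidase Prdx1 had 19028 and 19520 reads in the organoids and 10696 and 9835 in Epi, where its ratio was 1.13 (1.10 to 1.16). All 3 passed the FDR in Epi and none in the organoids. By the FDR alone 30.6% of all genes were higher and 7.92% lower in Epi, against 3.09% and 4.7% in the organoids. Sod2 and Prdx1 turned negative in Epi when the median of all genes was subtracted. Of 24 other peroxidases, dismutases and thioredoxins 5 were called higher in Epi and 0 lower, a share of higher calls near the 20.0% of all genes. Among the higher were Prdx4 of the endoplasmic reticulum at 1.53, Prdx3 of mitochondria at 0.76 and Ccs, the copper chaperone of Sod1, at 0.68 in the authors' deposited table.

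**Figure D2:**
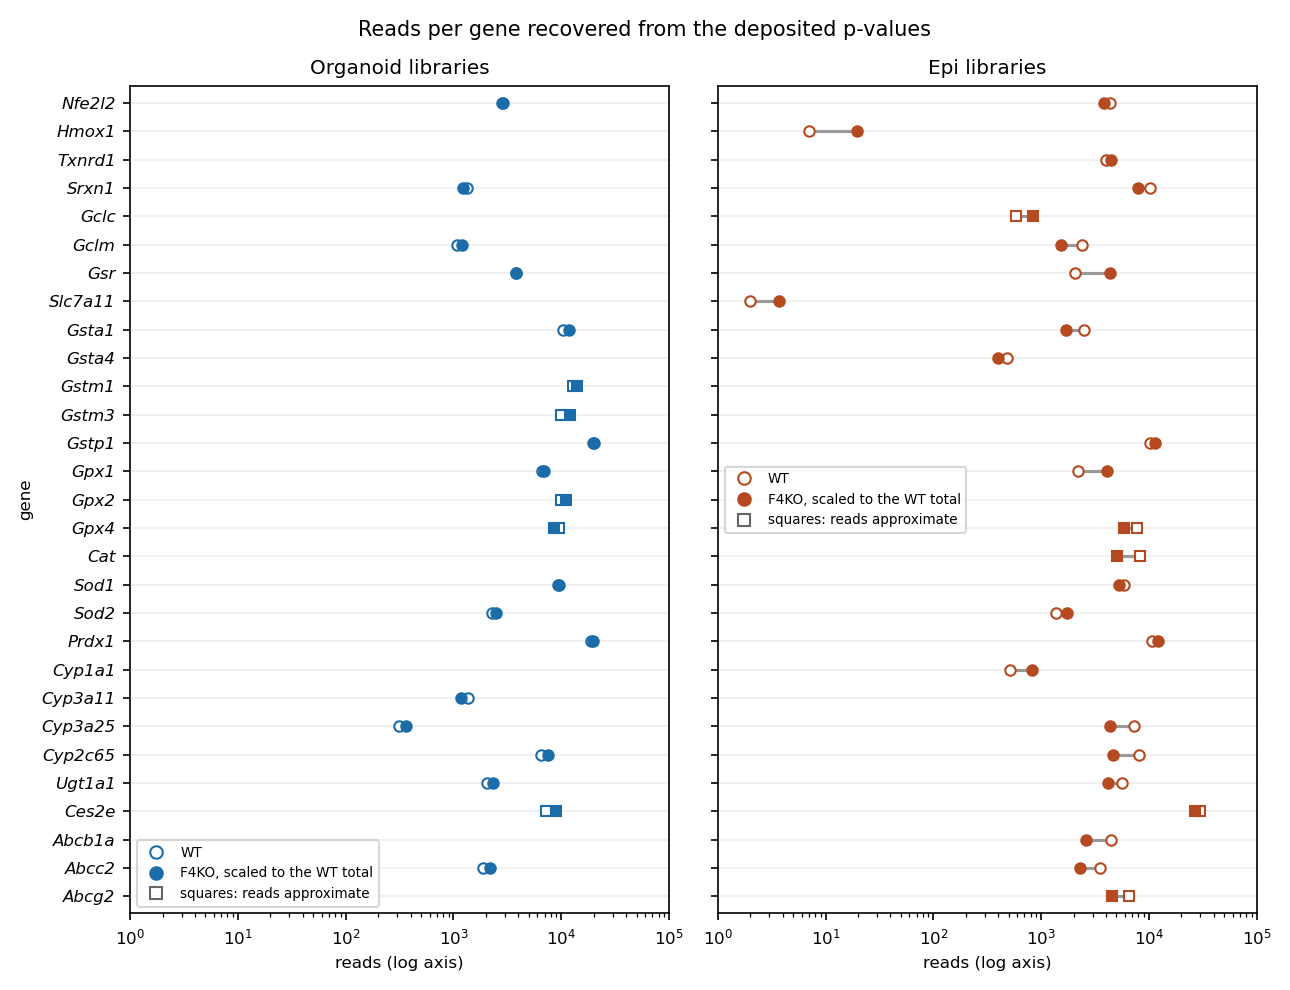
Reads per gene (x axis, log scale) in the WT library (open) and in the F4KO library scaled to the WT total (filled), for the genes whose reads could be recovered (y axis). The organoid comparison is on the left and the Epi comparison on the right, and squares mark reads known only approximately. Organoid pairs nearly overlap, whereas Gsr and Gpx1 lie to the right in F4KO Epi and Gclm, Cyp3a25, Cyp2c65 and Abcb1a to the left.

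Cytochromes P450 of the classes that PXR and CAR control were lower in F4KO Epi, beside the median of -0.56 for enterocyte markers. Of these 5 genes 4 were lower by more than 1.5-fold and called, where 2.51% of all genes were called lower. Cyp3a11 (chromosome 5, 145854607 to 145879854), the chief drug-oxidising P450 of mouse liver and intestine, stood at -1.19 in the authors' deposited table, with an FDR of 0 and at least 7430 reads in WT and 2645 in F4KO. Cyp2b10 (chromosome 7, 25897658 to 25926624), the classical target of CAR, stood at -1.16 in the authors' deposited table, also with an FDR of 0, and had at least 7712 and 2798 reads. Cyp2c65 (chromosome 19, 39061006 to 39093948), an intestinal enzyme that oxidises arachidonic acid, had 8048 reads in WT against 3770 in F4KO, a ratio of 0.576 (0.554 to 0.599). Cyp3a25 (chromosome 5, 145977192 to 146009644), a relative of Cyp3a11, had 7296 and 3526, a ratio of 0.595 (0.571 to 0.619). Cyp3a13 passed the FDR without reaching 1.5-fold, at -0.48 in the authors' deposited table. Cyp3a11, Cyp3a25, Cyp2c65 and Cyp2b10 have close copies, and how reads were placed among the copies is uncertain.

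In the organoids these P450 genes differed little. Cyp3a11 had 1354 reads in WT against 1169 in F4KO, a ratio of 0.870 (0.804 to 0.942) that missed the FDR limit (0.00482 in the authors' deposited table). Cyp2c65 had 6560 and 7530 reads, a ratio of 1.16 (1.12 to 1.20) that passed at 3.83e-16 in the authors' deposited table. Cyp3a25 had 312 and 362 reads, a ratio of 1.17 with an upper limit of 1.37, which did not pass. Cyp2c65 was thus higher in F4KO organoids and lower in F4KO Epi.

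Cyp1a1 (chromosome 9, 57687928 to 57703824), the classical target of the aryl hydrocarbon receptor, went the other way from the other 5 P450 genes in Epi. It had 520 reads in WT against 676 in F4KO, a ratio of 1.60 (1.42 to 1.80), and its FDR in the authors' deposited table was 4.37e-15, and with the median of all genes subtracted it was below 1.5-fold. Its organoid value of 0.33 missed the FDR limit (0.714 in the authors' deposited table). The receptor and its other targets gave no further call, with Ahr at 0.19 and an FDR of 0.430 in Epi in the authors' deposited table. Nr1i2 and Nr1i3, which encode PXR and CAR, had Epi log2 fold changes of -0.09 and -0.21 (FDR 0.288 and 0.0606 in the authors' deposited table). Of 31 genes in the list of PXR, CAR and other P450s of classes 2 and 3, 5 were called lower in Epi and 0 higher. Cyp2c29 at -2.54, Cyp2c66 at -1.77 and Cyp2c55 at -1.26 were the lowest of these in the authors' deposited table. Of all genes 2.51% were called lower in Epi and 20.0% higher. In the organoids 1 of 30 was called, Cyp2e1 at -0.83 in the authors' deposited table. There 0.94% of all genes were called lower and 0.271% higher.

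The conjugating and hydrolysing enzymes of the group were higher in F4KO organoids and lower in F4KO Epi, each time by less than 1.5-fold. Ugt1a1 (chromosome 1, 88211959 to 88220002), which joins bilirubin and drugs to glucuronic acid, had 2039 reads in WT and 2325 in F4KO organoids, a ratio of 1.15 (1.08 to 1.22). In Epi it had 5601 and 3364, a ratio of 0.739 (0.708 to 0.771). It shares its last exons with the other Ugt1a genes, so its reads are uncertain. Ces2e (chromosome 8, 104926260 to 104934672), an intestinal carboxylesterase that hydrolyses ester drugs, had about 7200 and 8800 reads in the organoids and about 30000 and 22000 in Epi. Its log2 fold changes were 0.31 and -0.21 in the authors' deposited table, with FDRs of 4.99e-39 and 1.34e-54. The carboxylesterases outside the group showed calls on the same sides. Ces2a at 0.72 and Ces1e at 0.65 were higher in F4KO organoids, and Ces1g at -1.22, Ces2c at -0.65 and Ces1f at -0.61 were lower in Epi, in the authors' deposited table. That is 2 of 13 called higher in the organoids and 3 of 15 lower in Epi, with none the other way in either. Of all genes 0.271% were called higher and 0.94% lower in the organoids, and 20.0% higher and 2.51% lower in Epi. Of 21 other transferases for glucuronic acid, sulfate, acetyl and methyl groups 1 was called higher in Epi, Ugt2b35 at 0.66, and 1 lower, Ugt2b5 at -0.85, in the authors' deposited table.

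All 3 efflux pumps were lower in F4KO Epi past the FDR, where 7.92% of all genes were lower by that rule. Abcb1a (chromosome 5, 8567091 to 8748575), one of the genes for P-glycoprotein on the luminal membrane, had 4495 reads in WT against 2139 in F4KO, a ratio of 0.585 (0.556 to 0.617). Abcc2 (chromosome 19, 43782308 to 43838332), which exports glutathione and glucuronic acid conjugates, had 3501 and 1875, a ratio of 0.659 (0.623 to 0.697). Abcg2, the breast cancer resistance protein gene, stopped short of 1.5-fold with about 6600 and 3700 reads and a log2 fold change of -0.51 in the authors' deposited table. In the organoids Abcc2 had 1873 reads in WT against 2181 in F4KO, a ratio of 1.17 (1.10 to 1.25), and its FDR in the authors' deposited table was 7.94e-06, and the other pumps did not pass. Other transporters were called on both sides. Of 18 with a fold change in Epi 4 were called higher, near the 20.0% of all genes, and 2 lower, where 2.51% of all genes were lower. The higher included Abcc1 at 1.74 and the organic anion transporters Slco4a1 at 1.64 and Slco2b1 at 0.94, and the lower were Slc47a1 at -0.81 and the carnitine transporter Slc22a5 at -0.61, in the authors' deposited table. Slco2b1 was also the 1 of 19 called in the organoids, at 0.94 in the authors' deposited table.

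Over all wider lists, 12 of the 176 genes outside the group were called higher in Epi and 18 lower, where 20.0% of all genes were higher and 2.51% lower. In the organoids 3 of 175 were higher and 1 lower, beside 0.271% and 0.94% of all genes. The list medians in Epi ran from -0.37 for the conjugating transferases and -0.28 for the list of PXR, CAR and P450 genes to 0.33 for the transporters and 0.36 for the peroxidases and thioredoxins, each below the 0.38 of all genes. Other glutathione transferases stood at -0.03 and other carboxylesterases at -0.01.

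**Figure D3:**
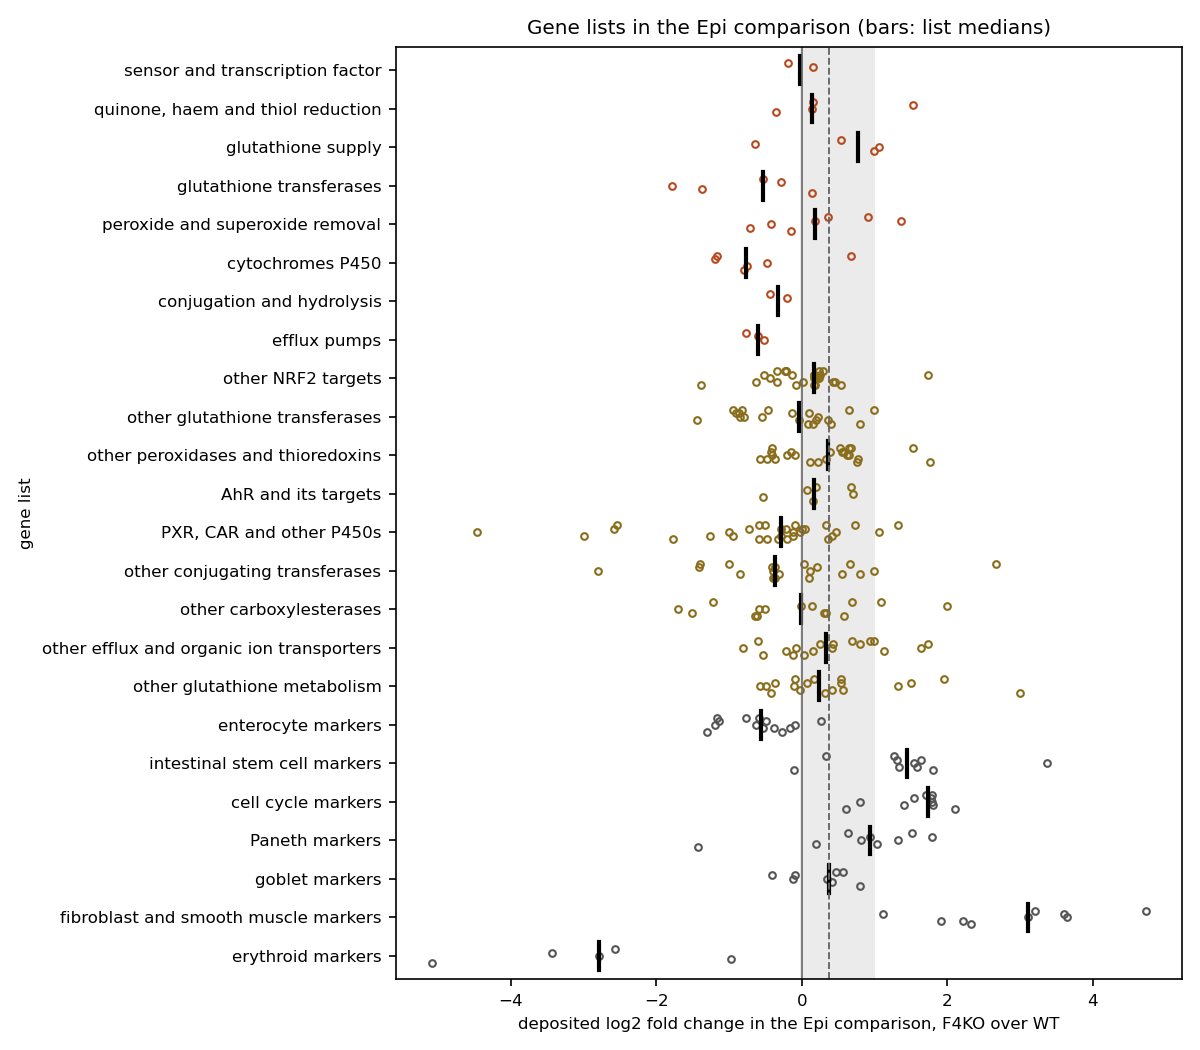
Deposited log2 fold change in the Epi comparison (x axis, F4KO over WT) of each gene (points) in the 8 roles of the group (red), the wider lists of the same pathways (ochre) and cell type markers (grey), with list medians as black bars. The grey band spans the quartiles of all genes, -0.01 to 0.99, and the dashed line their median of 0.38. The P450, glutathione transferase and efflux genes of the group, other than Cyp1a1 and Gstp1, lie to the left of the band with most enterocyte markers, whose median was -0.56, while the median of the cell cycle markers, 1.74, lies to its right.

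Of the 33 genes, 9 passed the FDR in both comparisons, and 7 of these were higher in F4KO organoids and lower in F4KO Epi. These were Gsta1, Gstm1, Gstm3, Cyp2c65, Ugt1a1, Ces2e and Abcc2. Gpx2 was higher in both and Gpx4 lower in both. Another 19 passed in Epi alone, and 5 passed in neither, Keap1, Nqo1, Hmox1, Slc7a11 and Gsta4. By the FDR alone 3.09% of all genes were higher in the organoids and 7.92% lower in Epi. The share of all genes that did both was not counted, so these counts have no background. Genes outside the group also ran this way. By the FDR alone, of 14 enterocyte markers 6 were higher and 3 lower in the organoids, and 1 was higher and 13 lower in Epi. The difference between the comparisons was not tested, since each had 1 library a genotype.

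For 9 genes the deposited fold changes also gave levels per library total and transcript length in all 4 libraries, on a scale whose unit no source used here gives. Gstp1 had the highest level in the WT organoids, at 1718, followed by Sod1 at 942, Gsta1 at 770 and Gpx4 at 748. In WT Epi the highest was Ces2e at 816, followed by Gstp1 at 793. The order of the genes thus differed between the culture and the Epi library. Gsta1 stood at 770 in WT organoids and 163 in WT Epi, and Srxn1 went the other way, at 29.2 and 198. Ces2e was 3.75 times higher in WT Epi than in WT organoids, and Cyp2c65 nearly equal, at 208 and 227. For Gsr the levels were 86.3 in WT and 86.8 in F4KO organoids, 42.4 in WT Epi and 88.7 in F4KO Epi, so WT Epi stood apart from the other 3. For Cyp2c65 it was F4KO Epi, at 131, that stood apart. These differences between organoid and Epi libraries have no replicate behind them. Gsta1, Gstp1, Cyp2c65 and Ces2e have close copies, so the placement of their reads is also uncertain.

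**Figure D4:**
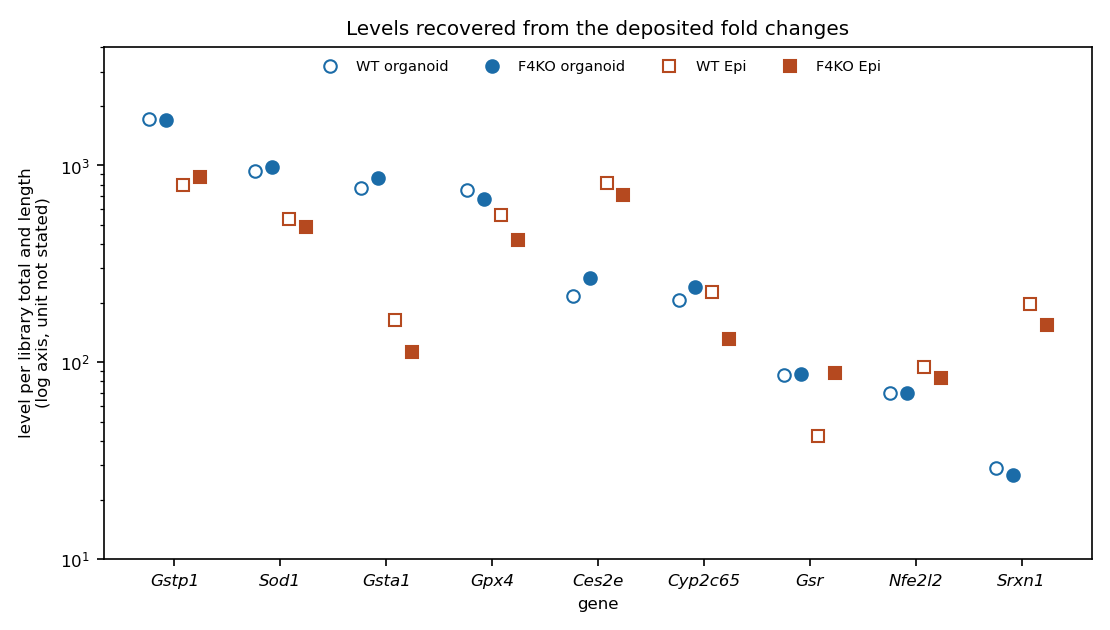
Level per library total and transcript length (y axis, log scale, unit not stated) of the 9 genes (x axis) whose levels could be recovered in all 4 libraries, with circles for organoids, squares for Epi, open symbols for WT and filled for F4KO. WT and F4KO organoid symbols lie close together for every gene, whereas Gsta1 is lower and Ces2e and Srxn1 are higher in both Epi libraries than in the organoids.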

How the data were processed

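RNA-seq libraries of mouse intestinal organoids, 1 for each of 2 genotypes, were made with the SMARTER kit for mRNA, per the labels' protocols. The authors deposited 2 tables, of genes and of transcripts, each with a log2 fold change, a p-value and an FDR for the organoid and the Epi comparison. Per the file headers the p-value comes from a Poisson-type test between 2 libraries. The FDR deposited by the authors was treated as a score, since it reaches 1.02. The submitters' processing notes name the builds GRCm38 and mm10. No source used here gives the aligner or quantifier, or levels or counts per library. The planned fold of levels was therefore replaced by the deposited fold changes.

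The 33 genes and all lists were chosen with earlier results of these data known. A call needed at least 1.5-fold and a deposited FDR of 0.001 or less. Of each wider list, up to 3 called genes at either end were named in each comparison. Epcam, Fabp4, Eif2s3y, Ahr, Nr1i2 and Nr1i3 were added after their values had been seen.

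Read numbers were recovered with Python 3.11.15, numpy 2.4.6, pandas 2.3.3 and scipy 1.17.1. The deposited p-values follow the two-sided Audic-Claverie formula, in which the only unknown is the ratio of library totals. That ratio was found from genes with 0 reads in 1 library, and it met all 798 such p-values in the organoid and all 885 in the Epi comparison. A pair of whole numbers was then sought that met both the p-value and the fold change. A pair was called exact where it alone fitted and its level per read matched in both comparisons, or where the total was at most 8000. Other pairs are printed as about, to 2 significant digits. Reads were exact for 15 of the genes in the organoids and 20 in Epi, and approximate for 5 in each. With p-values shifted by 0.03%, which leaves only false matches, 1 gene in each comparison still had an exact pair. On simulated reads 151 of 151 organoid pairs and 159 of 163 Epi pairs were recovered and none was wrong. The simulation used only small p-values and searched 1 comparison at a time. It does not cover nearly level genes matched through the other comparison, such as Nfe2l2, Gsr and Gstp1 in the organoids. Among 1724 genes searched in the organoids, the shift left 53 lone pairs against 1194 without it. Among 2164 searched in Epi it left 19 against 1339. Levels come from the deposited fold, a ratio of 2 levels with 2 decimals, and are printed where the common multiple was settled, or as at least the smallest pair. Promoters, gene positions and motifs use RefSeq tables of GRCm38.p6. Figures were drawn with matplotlib 3.10.9.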

Additional observations from a re-analysis of the deposited data

Results flagged for a closer look

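For 7 genes the F4KO library was higher than WT in the organoid comparison and lower in the Epi comparison, each past a deposited FDR of 0.001, so the same contrast ran opposite ways. The Epi minus organoid difference of the deposited log2 fold changes was -0.70 for Gsta1, -1.90 for Gstm1, -1.66 for Gstm3, -1.01 for Cyp2c65, -0.64 for Ugt1a1, -0.51 for Ces2e and -0.83 for Abcc2. These differences were not tested, because each comparison had 1 library a genotype. Beside them, the median of 14 enterocyte markers was 0.14 in the organoid and -0.56 in the Epi comparison, and their part in the result was not tested. By the FDR alone 3.09% of all genes were higher in the organoids and 7.92% lower in Epi. The share of all genes that did both was not counted.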

How the results depend on the processing

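No paired analysis was possible because each genotype had 1 library in a comparison, and for the same reason no library could be left out. In the organoids, asking for no minimum fold moved the calls in the group from 0 to 8 higher and from 0 to 1 lower, and taking for each gene the transcript with the smallest p-value moved them to 2 higher and 3 lower. In Epi, where 4 were higher and 10 lower, a limit of 2-fold left 2 and 4, no minimum fold gave 9 and 19, and subtracting the median of all genes gave 2 and 16. For the genes of the wider lists that are outside the group, 3 were called higher and 1 lower in the organoids. An FDR of 0.05 gave 6 and 2, a limit of 2-fold 0 and 0, and no minimum fold 28 and 7. In Epi 12 were higher and 18 lower. An FDR of 0.05 gave 19 higher, a limit of 2-fold 5 and 6, no minimum fold 35 and 50, and subtracting the median 5 and 46. The Epi median of the group turned from -0.29 to 0.14 without genes that have close copies, still below the 0.38 of all genes. Subtracting the median of all genes turned the Epi values of Keap1 (-0.22), Nqo1 (-0.22), Txnrd1 (-0.24), Gstp1 (-0.24), Sod2 (-0.021) and Prdx1 (-0.20). It carried past the call rule Srxn1 (-0.73), Gsta1 (-0.91), Gpx4 (-0.80), Cyp3a13 (-0.86), Ugt1a1 (-0.81) and Abcg2 (-0.89) in Epi. Taking 1 transcript turned the organoid values of Slc7a11 (1.83), Cyp3a13 (-0.67) and Abcg2 (-9.44), and carried past the call rule, in the direction of the gene, Keap1 in the organoids (-7.42) and in Epi (5.64), Abcc2 in the organoids (0.73), and Gclc (0.77) and Abcg2 (-1.25) in Epi. The transcript was picked in each comparison separately and need not be the same in both. The causes of these changes were not tested. Read ratios differed from the deposited log2 fold changes by at most 0.0149 among genes with 100 or more reads in WT, and leaving out genes of low level or few reads changed no count by more than 1.5 times. Read depth limits Hmox1 and Slc7a11 in Epi, and with 1 library a genotype no interval here includes variation between animals or cultures.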

Other observations

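At the level of transcripts, some genes of the group held transcripts with opposite values. Of the 13 genes with 2 or more measured transcripts in the organoids, 2 had transcripts past the FDR in both directions, Slc7a11 and Abcg2. In Epi 4 of 12 did, Gpx1, Gpx4, Cyp3a13 and Abcg2. In Epi the transcripts ran from -6.51 to 8.53 for Gpx1 and from -0.51 to 0.45 for Gpx4. Those of Cyp3a13 ran from -0.53 to 0.71 and of Abcg2 from -7.93 to 0.46, in the authors' deposited table. For the cystine importer Slc7a11, 4 transcripts ran from -3.91 to 1.83 on the log2 scale in the organoids, 1 higher and 3 lower past the FDR, while the gene stood at -0.11, in the authors' deposited table. Both listed transcripts of the pump gene Abcb1a were lower in Epi past the FDR, from -0.95 to -0.49 in the authors' deposited table. Those of Abcc2 ran from -1.02 to -0.17 in Epi and from -0.22 to 0.73 in the organoids in the authors' deposited table. No source used here says how reads were shared among transcripts.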
